A study of Mus musculus with 6 samples.

Results

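The 5 miRNAs followed here belong to miR-124, miR-9 and miR-128, which are tied to neural fate, and were measured in the right substantia nigra (SN) of mice that overexpressed human α-synuclein with the A53T change, with and without angiotensin-(1-7) (Ang-(1-7)). The members were mmu-miR-124-3p, mmu-miR-124-5p, mmu-miR-9-5p, mmu-miR-9-3p and mmu-miR-128-3p, chosen by name, and all 5 were found among the 1393 annotated miRNAs of the table. Small RNA was sequenced in 6 libraries, 3 of the hα-syn(A53T) + Ang-(1-7) group and 3 of the hα-syn(A53T) group, to ask which miRNAs differ when Ang-(1-7) is given. Both groups carried hα-syn(A53T). The labels call the animals a strain that overexpresses it, whereas the study's methods describe male C57BL/6J mice given an AAV for hα-syn(A53T) in the right SNpc at 8 weeks of age. The Ang-(1-7) group had 1.1 nmol of the peptide infused above the SN each hour for 4 weeks, in a flow of 0.25 μL per hour, and the other group had artificial cerebrospinal fluid (aCSF) at that rate. Control mice were not analysed here, so a value is compared only between hα-syn(A53T) mice. Neither source says whether a library was made from 1 mouse or from several, so the p-values reflect only how far libraries of a group differ, and this spread may be technical.

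Each of these miRNAs is cut from a hairpin, whose 5p and 3p arms are released together as a duplex, and as a rule one arm is kept and the other degraded. The kept arm guides Argonaute to messenger RNAs through its seed, the bases near its 5′ end, and lowers their stability or translation. miR-124 is a classic miRNA of neurons and represses PTBP1 and other genes of non-neuronal cells. miR-9 is abundant in neural progenitors and neurons, where miR-9-5p represses REST and TLX and miR-9-3p represses CoREST. miR-128 is abundant in neurons after their last division and restrains their excitability in mice.

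Sequences of 3 of the members were matched by name in RefSeq (GRCm38.p6), and they are shown because the seed decides which messages an arm can reach. They are written 5′ to 3′, and the capitals mark the seed, bases 2 to 8.
mmu-miR-9-5p: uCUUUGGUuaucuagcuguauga
mmu-miR-9-3p: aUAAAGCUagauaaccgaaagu
mmu-miR-128-3p: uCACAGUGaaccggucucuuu
The 3 seeds differ from each other, so the arms of miR-9 do not share a seed. No other annotated miRNA with a RefSeq sequence had any of these seeds at bases 2 to 8.

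The arms of miR-9 pair along much of their length. The longest perfect complement held 12 bases, from base 6 to 17 of miR-9-5p and from base 5 to 16 of miR-9-3p, and it is in capitals here.
mmu-miR-9-5p: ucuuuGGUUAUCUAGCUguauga
mmu-miR-9-3p: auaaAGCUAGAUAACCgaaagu
miR-9-5p and miR-9-3p each have the same sequence at 3 loci of GRCm38.p6, all on the plus strand. The Mir9-1 hairpin (chr3:88215598-88215686) lies in an intron of the lincRNA gene Gm3764, and that of Mir9-3 (chr7:79505264-79505353) in an intron of the lincRNA gene Mir9-3hg. The Mir9-2 hairpin (chr13:83738814-83738885) lies in an exon of the lincRNA gene C130071C03Rik. miR-128-3p comes from 2 loci. The Mir128-1 hairpin (chr1:128202361-128202430, plus strand) lies in an intron of R3hdm1, and that of Mir128-2 (chr9:112118636-112118711, minus strand) in an intron of Arpp21. Each hairpin lies on the strand of its host gene. Reads of miR-9-5p, miR-9-3p and miR-128-3p cannot be assigned to one of these loci.

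The values are normalized counts, which are read counts that the authors divided by size factors. Annotated miRNAs and predicted loci of the table have separate size factors, and the values here are those of the annotated miRNAs. The annotated miRNAs held 14796519 to 17088611 reads per library, so the depth of the groups was similar. limma was fitted to log2(normalized count + 1) over the 1065 annotated miRNAs that reached a value of 1 in 3 or more libraries, and p-values were adjusted by Benjamini-Hochberg over all of them. All 5 members passed this filter. Of the 1065 miRNAs, 9.58% passed an adjusted p under 0.05, with 5.54% higher and 4.04% lower after Ang-(1-7), and 28.2% had no overlap between the libraries of the groups. The median log2 change over all of them was -0.04. Among the members, 1 of 5 passed, in the lower direction, and 3 of 5 had groups that did not overlap. With so few members, these shares are a description beside the background.

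The members differed widely in abundance. The 3 with a sequence are 21 to 23 bases long, and how efficiently each miRNA is captured in a library, which also sets its level, was not tested. On the scale of normalized counts, miR-9-5p ranked 1 or 2 of all annotated miRNAs in every library, and miR-128-3p ranked 1 to 4. miR-124-3p ranked 28 to 51, miR-9-3p 29 to 56 and miR-124-5p 144 to 186. By mean level the order was miR-9-5p, miR-128-3p, miR-9-3p, miR-124-3p and miR-124-5p. The neighbours in this order did not all stand apart. The ranges of miR-9-3p and miR-124-3p overlapped in both groups, and those of miR-9-5p and miR-128-3p in the Ang-(1-7) group. In the hα-syn(A53T) group every library had more miR-9-5p than any had miR-128-3p. The 5 members together took 25.6%, 23.3% and 20.3% of the annotated reads in the Ang-(1-7) libraries and 20.6%, 19.0% and 16.4% in the hα-syn(A53T) libraries. These ranges overlapped. At this depth the 95% binomial interval (Wilson) of a member's share in 1 library reached at most 0.0167 percentage points to either side, which covers counting error only.

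**Figure D1:**
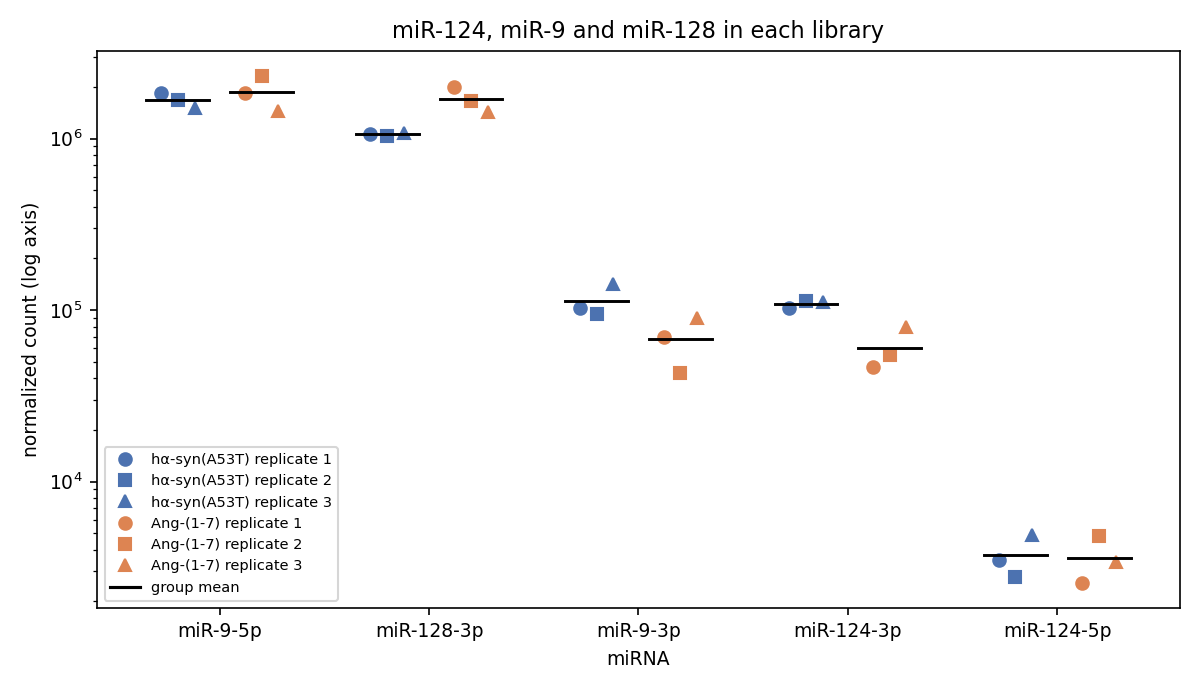
Normalized counts (log axis) of the 5 members in each of the 6 libraries, with blue marks for hα-syn(A53T), orange marks for hα-syn(A53T) + Ang-(1-7), shapes for replicate numbers and lines for group means. The orange marks of miR-124-3p (46739 to 79626) lie below all blue ones (102230 to 112701), those of miR-128-3p lie above, and those of miR-9-5p and miR-124-5p overlap.

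miR-124-3p, the abundant arm of the neuronal miRNA miR-124, fell in the right SN after Ang-(1-7), to 55.4% of its mean level without it. It measured 46739, 54657 and 79626 normalized counts after Ang-(1-7), against 102230, 112701 and 111801 with aCSF alone. The groups did not overlap, and the Ang-(1-7) libraries were the more scattered, with a coefficient of variation of 28.4% against 5.33%. The means were 60341 ± 17164 and 108910 ± 5803 (SD, n = 3). The log2 change was -0.89 (standard error, SE, 0.23, 95% interval -1.39 to -0.38, limma adjusted p = 0.0386). Its share of the annotated reads was 0.381% ± 0.129 with Ang-(1-7) and 0.684% ± 0.0432 without it (SD, n = 3). In a tissue sample, fewer cells of a type and less of the miRNA per cell cannot be told apart.

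The call depended on most of the libraries. Leaving out any library but Ang-(1-7) replicate 3 ended it, with a log2 change of -0.72 without Ang-(1-7) replicate 1, -0.83 without Ang-(1-7) replicate 2, and -0.93, -0.86 and -0.87 without hα-syn(A53T) replicates 1, 2 and 3 (limma adjusted p = 0.0743 to 0.165). The number of all miRNAs that passed as lower fell in these settings too, from 43 to between 8 and 30. Without Ang-(1-7) replicate 3, the library with most miR-124-3p of its group, the change was -1.11 (limma adjusted p = 0.00853). That library also differed from the other 2 of its group in miR-10b-5p, which lies in a Hox cluster and is typical of hindbrain and spinal cord. miR-10b-5p measured 1118, 577 and 21338 normalized counts after Ang-(1-7), against 6887, 48662 and 39970 with aCSF alone. When the levels of miR-10b-5p and miR-10a-5p (their mean on the log2 scale) entered the fit as a covariate, the log2 change of miR-124-3p was -0.50 (SE 0.25, limma adjusted p = 0.465). This covariate itself lay lower with Ang-(1-7), with log2 changes of -3.31 for miR-10b-5p and -2.78 for miR-10a-5p (limma adjusted p = 0.132 and 0.0850). Fits with it, here and below, therefore cannot separate the miR-10 level from the treatment, and a smaller change in them does not show a cause.

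miR-124-5p, the minor arm of the same hairpin, did not differ beyond the spread of the libraries. It measured 2578, 4834 and 3399 normalized counts after Ang-(1-7), against 3473, 2792 and 4860 with aCSF alone, so the groups overlapped. The log2 change was -0.05 (SE 0.29, 95% interval -0.70 to 0.60, limma adjusted p = 0.936). The interval allows a change of either sign, so a change of this arm was not detectable with 3 libraries a group.

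miR-9-5p, the dominant arm of miR-9 and by mean level the most abundant miRNA of the table, did not pass the test. It measured 1851664, 2312130 and 1441286 normalized counts after Ang-(1-7), against 1847959, 1677985 and 1502381 with aCSF alone. Both the highest and the lowest of the 6 values were in the Ang-(1-7) group. The log2 change was 0.14 (SE 0.22, 95% interval -0.35 to 0.62, limma adjusted p = 0.761), and the share of the annotated reads was 11.6% ± 1.83 against 10.6% ± 1.77 (SD, n = 3).

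miR-9-3p, the other arm, lay lower in every Ang-(1-7) library but did not pass the test. It measured 70014, 43079 and 90046 normalized counts after Ang-(1-7), against 103063, 94955 and 142345 with aCSF alone. The groups did not overlap, though Ang-(1-7) replicate 3 and hα-syn(A53T) replicate 2 were close. The log2 change was -0.79 (SE 0.29, 95% interval -1.43 to -0.15, limma adjusted p = 0.136). It passed without Ang-(1-7) replicate 3 (-1.02, limma adjusted p = 0.0422) and was -0.49 without Ang-(1-7) replicate 2 (limma adjusted p = 0.303), and with the miR-10 level as a covariate it was -0.31 (SE 0.33, limma adjusted p = 0.753).

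miR-128-3p lay higher in every Ang-(1-7) library, 1.60-fold by the means, but did not pass the test. It measured 1997698, 1663728 and 1435234 normalized counts after Ang-(1-7), against 1064456, 1040905 and 1082360 with aCSF alone. The groups did not overlap, and the lowest Ang-(1-7) value was again that of replicate 3. The means were 1698887 ± 282875 and 1062574 ± 20791 (SD, n = 3), which made up 10.6% ± 1.94 and 6.68% ± 0.385 of the annotated reads. The log2 change was 0.66 (SE 0.19, 95% interval 0.24 to 1.09, limma adjusted p = 0.0586). It passed without Ang-(1-7) replicate 3 (0.78, limma adjusted p = 0.0345), and with the miR-10 level as a covariate it was 0.49 (SE 0.25, limma adjusted p = 0.468). In every Ang-(1-7) library, miR-128-3p and miR-9-5p were the 2 most abundant annotated miRNAs.

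**Figure D2:**
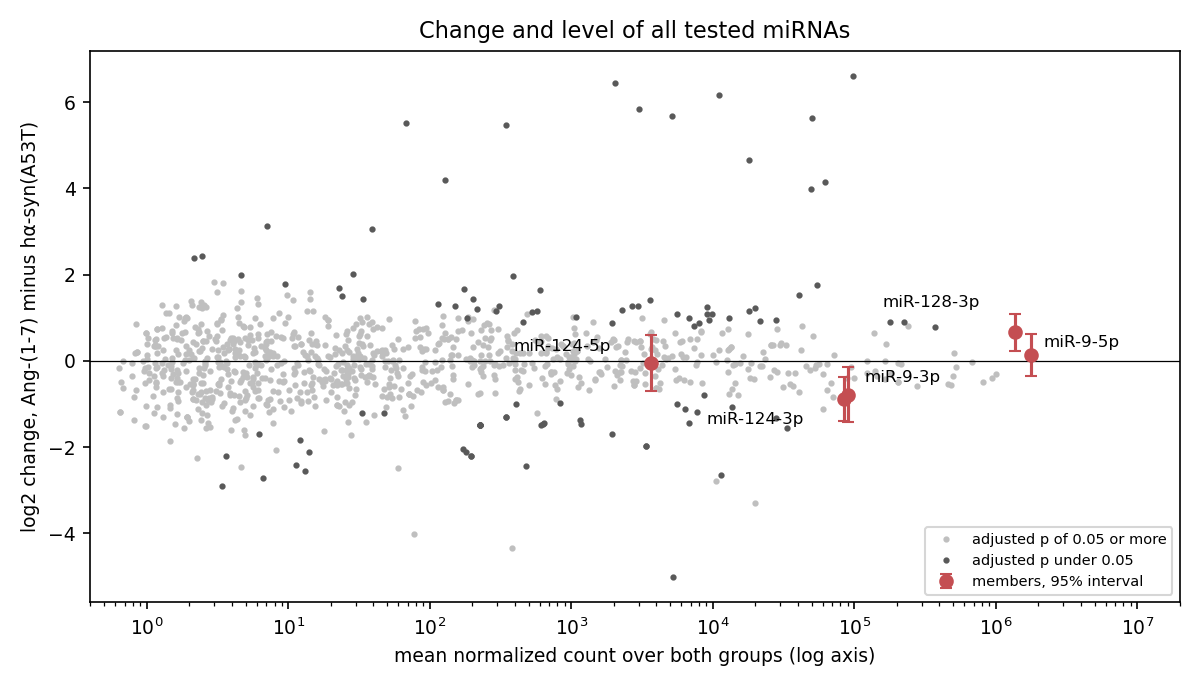
Log2 change (Ang-(1-7) minus hα-syn(A53T)) against the mean normalized count (log axis) for the 1065 tested miRNAs, with dark points for an adjusted p under 0.05 and red points with 95% intervals for the members. miR-128-3p (0.66) and miR-9-5p (0.14) lie at the abundant end, and miR-124-3p (-0.89) and miR-9-3p (-0.79) lie side by side below 0.

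The opposite positions of miR-124-3p and miR-128-3p can be read as ratios within a library, which a single scaling factor per library does not alter. There were 3 such ratios, and with 3 libraries against 3 an exact permutation test cannot give a two-sided p below 0.1. For each miR-124-3p read there were 42.7, 30.4 and 18.0 reads of miR-128-3p in the Ang-(1-7) libraries and 10.4, 9.24 and 9.68 in those without it. The groups did not overlap, and the log2 ratio of miR-124-3p to miR-128-3p differed by -1.55 (exact permutation test, two-sided p = 0.1). With miR-124-3p lower and miR-128-3p higher in every Ang-(1-7) library, this ratio had to separate the groups. Its p-value therefore restates those values and adds no support. For each miR-124-3p read there were 39.6, 42.3 and 18.1 reads of miR-9-5p with Ang-(1-7) and 18.1, 14.9 and 13.4 without it. The log2 ratio of miR-124-3p to miR-9-5p differed by -1.02 (exact permutation test, two-sided p = 0.1), although Ang-(1-7) replicate 3 and hα-syn(A53T) replicate 1 were nearly equal. For each miR-9-5p read there were 1.08, 0.720 and 0.996 reads of miR-128-3p with Ang-(1-7) and 0.576, 0.620 and 0.720 without it. Here the groups overlapped slightly, at Ang-(1-7) replicate 2 and hα-syn(A53T) replicate 3, and the log2 ratio of miR-9-5p to miR-128-3p differed by -0.53 (exact permutation test, two-sided p = 0.2).

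**Figure D3:**
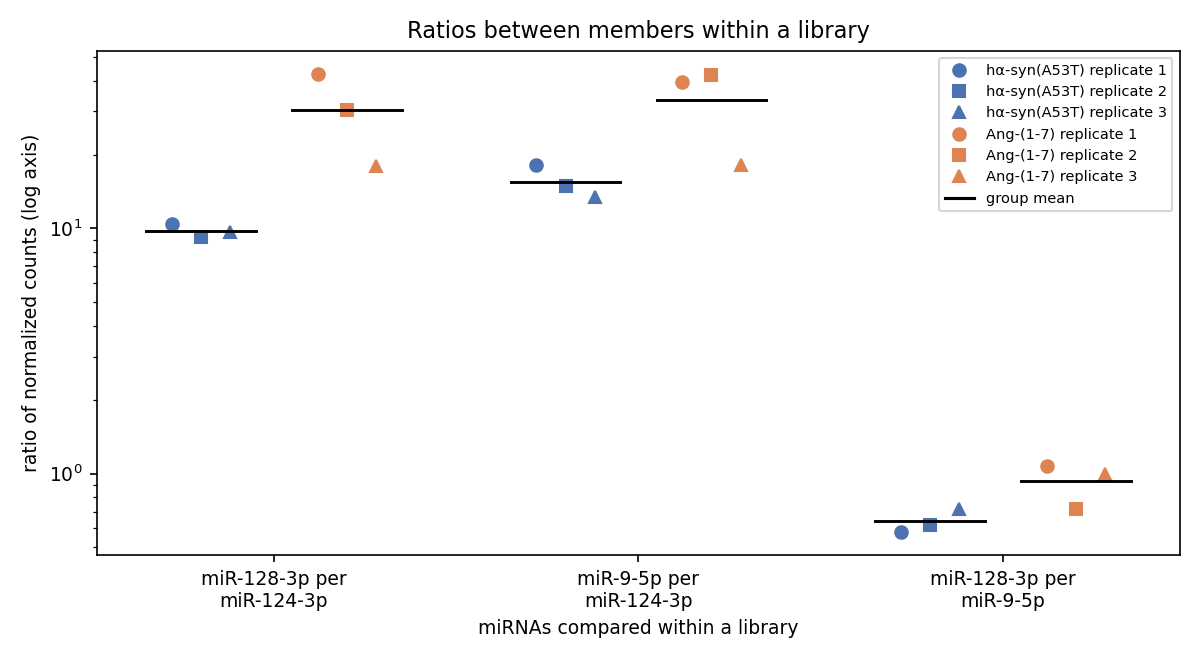
Ratios of normalized counts (log axis) between members within each library, with blue marks for hα-syn(A53T), orange marks for hα-syn(A53T) + Ang-(1-7) and lines for group means. The ratio of miR-128-3p to miR-124-3p lies between 18.0 and 42.7 with Ang-(1-7) and between 9.24 and 10.4 without it, and Ang-(1-7) replicate 3 is closest to the other group in both ratios to miR-124-3p.

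The ratio between the arms of a hairpin shows whether both arms moved together. In miR-124 the 3p arm dominated, with 18.1, 11.3 and 23.4 reads per read of the 5p arm in the Ang-(1-7) libraries and 29.4, 40.4 and 23.0 in those without it. The ranges overlapped slightly, at Ang-(1-7) replicate 3 and hα-syn(A53T) replicate 3. The log2 ratio of 3p to 5p differed by -0.84 (SE 0.34, 95% interval -1.63 to -0.04, limma adjusted p = 0.391). It was -0.55 without Ang-(1-7) replicate 2 and -0.35 with the miR-10 level as a covariate.

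In miR-9 the 5p arm dominated, with 26.4, 53.7 and 16.0 reads per read of the 3p arm with Ang-(1-7) and 17.9, 17.7 and 10.6 without it. These ranges overlapped as well, and Ang-(1-7) replicate 2 stood far above the rest. The log2 ratio of 3p to 5p differed by -0.92 (SE 0.46, limma adjusted p = 0.391), and by -0.46 without that library and -0.074 with the miR-10 level as a covariate. By size these changes ranked 10 (miR-124) and 8 (miR-9) among the 137 hairpins whose arms both had a mean of at least 50 normalized counts, where the median size was 0.28. None of the 137 arm ratios passed in limma (0%), while 12 had an unadjusted p under 0.05, and the ratio of 3p to 5p was lower after Ang-(1-7) in 66 of the 137.

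miR-128 has a separate 5p arm from each locus, and both were scarce. The RefSeq sequences, with the seed in capitals, show that these arms share a seed but differ elsewhere, so that their reads can be told apart.
mmu-miR-128-1-5p: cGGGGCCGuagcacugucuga
mmu-miR-128-2-5p: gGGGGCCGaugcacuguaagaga
miR-128-1-5p, of the R3hdm1 intron, measured 327, 420 and 396 normalized counts after Ang-(1-7), against 110, 125 and 336 with aCSF alone. The ranges overlapped, and the log2 change of 1.18 did not pass (SE 0.40, limma adjusted p = 0.110). miR-128-2-5p, of the Arpp21 intron, measured 239, 166 and 314 after Ang-(1-7), against 148, 201 and 320 with aCSF alone (log2 change 0.13, SE 0.35, limma adjusted p = 0.866).

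The 5p arms, unlike miR-128-3p, can each be assigned to a locus of miR-128. Their ratio compares the minor arms that remain, and the output of the loci themselves was not tested. miR-128-1-5p had 1.37, 2.52 and 1.26 reads per read of miR-128-2-5p with Ang-(1-7) and 0.743, 0.622 and 1.05 without it. The groups did not overlap, though the nearest values, 1.05 and 1.26, were close and neither arm separated the groups by itself. This ratio was not tested, and how often such a ratio separates the groups among all miRNAs was not counted. miR-128-3p had 3534, 2838 and 2023 reads per read of both 5p arms with Ang-(1-7) and 4137, 3191 and 1651 without it, so those ranges overlapped.

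**Figure D4:**
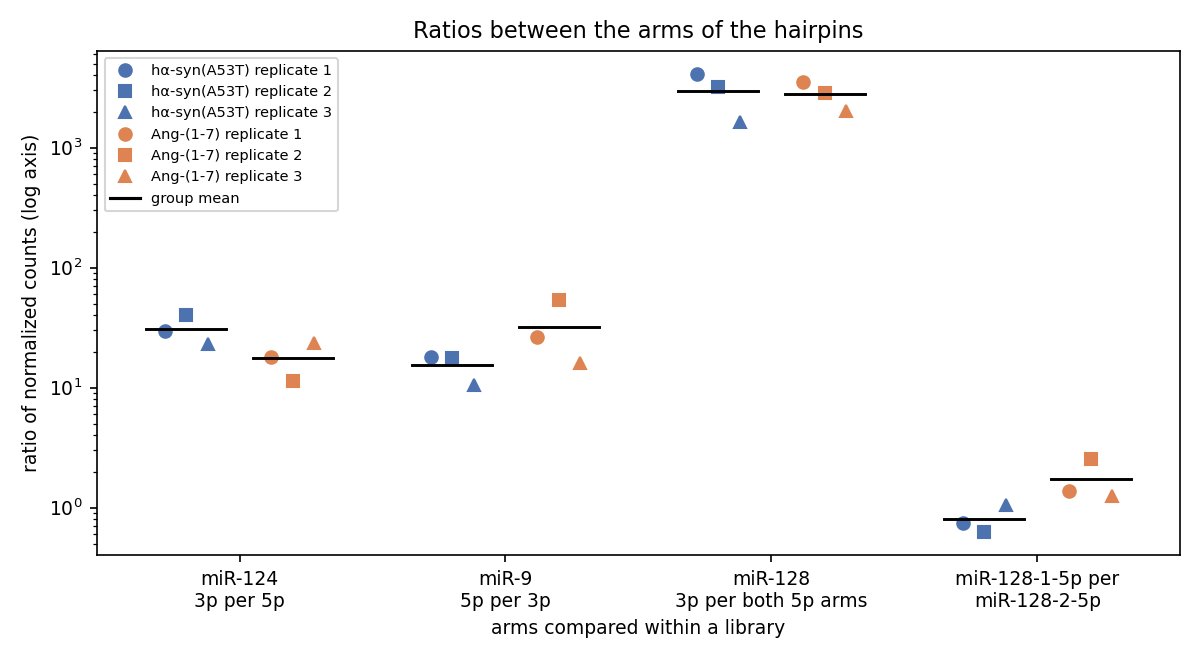
Ratios of normalized counts (log axis) between the arms of the miR-124, miR-9 and miR-128 hairpins in each library, with blue marks for hα-syn(A53T), orange marks for hα-syn(A53T) + Ang-(1-7) and lines for group means. The groups overlap for miR-124, miR-9 and the summed 5p arms of miR-128. They do not for miR-128-1-5p per miR-128-2-5p (1.26 to 2.52 against 0.622 to 1.05), a ratio that was not tested.

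The seed of miR-128-3p recurs 1 base further along in the broadly expressed miR-27 family. The stretch is in capitals and spans bases 3 to 9 of both.
mmu-miR-27b-3p: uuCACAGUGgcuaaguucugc
mmu-miR-27a-3p: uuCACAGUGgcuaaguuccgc
miR-27b-3p measured 137950, 216833 and 145727 normalized counts after Ang-(1-7), against 148686, 154993 and 187793 with aCSF alone, with a log2 change of 0.00 (SE 0.22, limma adjusted p = 0.997). miR-27a-3p had a log2 change of -0.12 (SE 0.19, limma adjusted p = 0.746). miR-216a-3p, which has the stretch at bases 1 to 7, was scarce, with a mean of 27.6 normalized counts and a log2 change of -1.71 (SE 0.59, limma adjusted p = 0.117). None of these passed, and the difference between any of them and miR-128-3p was not tested.

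Other miRNAs enriched in neurons mostly lay higher after Ang-(1-7). A list of 10 such miRNAs, drawn up with earlier results of these data known, had 7 of 10 that passed as higher (against 5.54% of all miRNAs tested), 0 as lower in limma (against 4.04%) and 3 that did not pass, with a median log2 change of 0.92 against -0.04 over all miRNAs tested. At an unadjusted p under 0.05 the number higher was also 7, against 11.7% of all tested. The list holds miR-153-3p, which the study itself picked from its sequencing of these groups. These counts therefore describe the list and are not a test of it. Their summed level ran from 812011 to 947234 normalized counts with Ang-(1-7) and from 477389 to 552997 without it. miR-218-5p, a miRNA of motor and other neurons, rose with a log2 change of 0.78 (SE 0.21, limma adjusted p = 0.0452). miR-7a-5p, found in neurons and in endocrine cells, rose with 0.91 (SE 0.22, limma adjusted p = 0.0358). miR-132-3p, which active neurons transcribe through CREB, rose with 0.94 (SE 0.19, limma adjusted p = 0.0167). miR-138-5p, miR-153-3p, miR-488-3p and miR-137-3p passed too, with log2 changes of 1.24, 1.09, 1.09 and 1.41. miR-129-5p (-0.08), miR-135a-5p (-0.41) and miR-383-5p (0.28) did not pass. By these log2 changes, miR-128-3p (0.66) lay on the side of the list and miR-124-3p (-0.89) on the other.

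The count of 7 changed with single libraries. It dropped to 2 when Ang-(1-7) replicate 1 was left out, 1 when it was hα-syn(A53T) replicate 1, and 0 in limma when it was hα-syn(A53T) replicate 2, where 7 of the 10 still had an unadjusted p under 0.05. With the miR-10 level as a covariate it was 0 in limma, with 6 at an unadjusted p under 0.05. The other libraries left out gave 5 to 6. The number of all miRNAs that passed as higher fell in the same settings, from 59 to 13 with the covariate, 25 without Ang-(1-7) replicate 1, and 21 and 19 without hα-syn(A53T) replicates 1 and 2. These settings for the list were chosen after the data were seen.

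**Figure D5:**
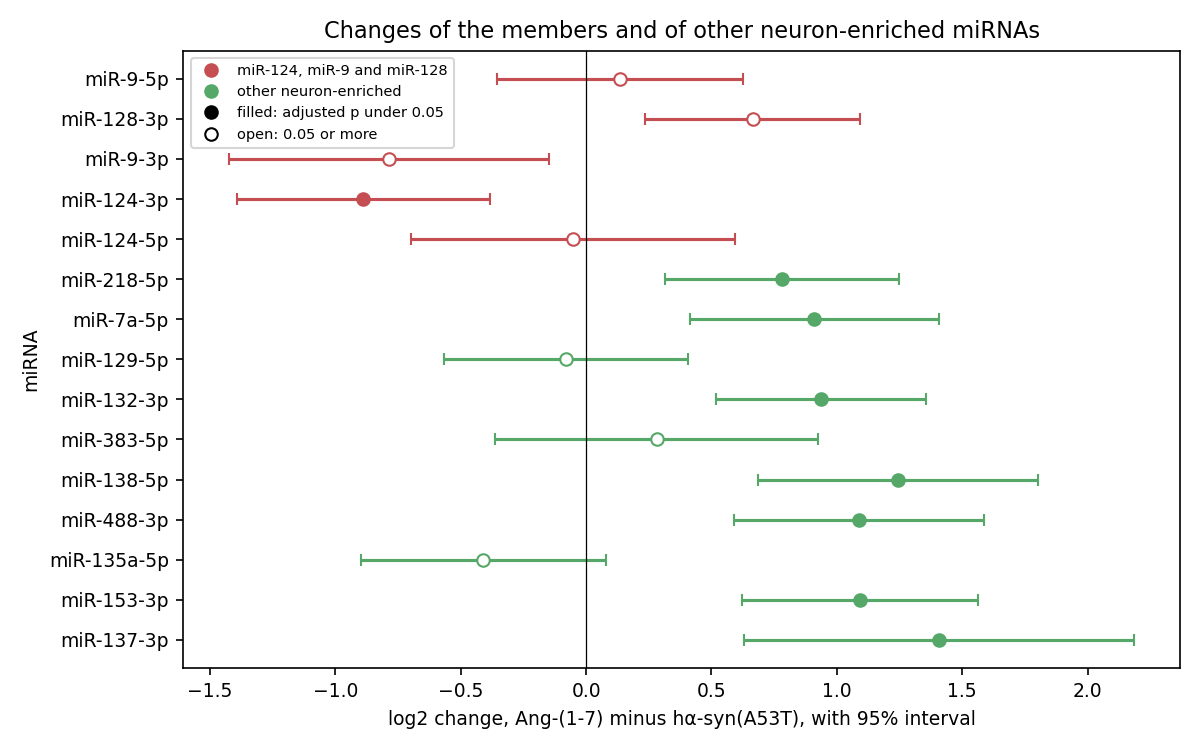
Log2 changes (Ang-(1-7) minus hα-syn(A53T)) with 95% intervals for the 5 members in red and the 10 other neuron-enriched miRNAs in green, where filled points have an adjusted p under 0.05. miR-124-3p is the filled point below 0 (-0.89), and the 7 filled green points lie between 0.78 and 1.41.

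Markers of other cell types were read beside these values, since a piece of tissue holds many cells. Among all miRNAs tested, 5.54% passed as higher, 4.04% passed as lower and 28.2% had groups that did not overlap. Of 4 miRNAs of oligodendrocytes, miR-338-5p fell (log2 change -0.80, limma adjusted p = 0.0467) and 3 did not pass, with a summed level of 35886 to 66079 normalized counts with Ang-(1-7) and 60729 to 168387 without it. All 4 lay lower by their log2 changes, with a median of -0.73 against -0.04 over all miRNAs tested, and 3 of them had groups that did not overlap. Of 5 miRNAs of microglia and leukocytes and 2 of endothelium, 0 passed in limma. Groups did not overlap for 1 of the 5, miR-155-5p (log2 change -0.56), and for 0 of the 2. The summed levels of microglia and leukocytes, mostly miR-146a-5p, were 13243 to 31967 with Ang-(1-7) against 13724 to 33824. Those of endothelium were 198115 to 225918 against 199929 to 227653. All 5 miRNAs of the epithelium list, which holds only the miR-200 family, rose, from a sum of 2863 to 8497 without Ang-(1-7) to a sum of 160432 to 477761 with it. Epithelial miRNAs of other families were not on the list, so this rise describes the miR-200 family only. All 3 miRNAs of muscle fell, with sums of 14872 to 21779 with Ang-(1-7) and 41727 to 86139 without it. Of 3 miRNAs of red blood cells, miR-486a-5p, which made up most of the sum, fell (log2 change -1.97) and 2 did not pass, with sums of 1542 to 1801 with Ang-(1-7) and 3609 to 6893 without it. Of these 2, miR-451a measured 145, 450 and 367 with Ang-(1-7) and 155, 162 and 167 without it (log2 change 0.83, limma adjusted p = 0.240). Of 4 miRNAs of Hox clusters, miR-196a-5p, listed at 0 in every Ang-(1-7) library and at 4.10, 9.27 and 7.08 without it, passed as lower and 3 did not pass, with sums of 1373 to 31727 and 12670 to 74596. All 4 of these Hox miRNAs lay lower by their log2 changes, with a median of -2.85, and groups did not overlap for 1. No listed marker was at 0 in every library. The part of these cell types in the levels of miR-124, miR-9 and miR-128 was not tested.

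Other miRNAs followed the members across the 6 libraries, and the nearest were found among 440 with a mean of at least 100 normalized counts. Likeness was the root mean square difference of the log2 values after each profile was centred on its own mean. The members and the 5p arms of miR-128 were left out of the candidates, and the measure describes libraries that share their scaling and depth. Since the nearest were chosen by these same profiles, a pattern over the libraries that they share with a member follows from the choice. The closest to miR-124-3p were miR-466d-3p (0.17), miR-320-3p (0.19) and let-7k (0.19), against a median of 0.61 over the candidates. miR-320-3p measured 4306, 4052 and 5858 normalized counts after Ang-(1-7), against 9945, 10981 and 11129 with aCSF alone, so it too was low in the Ang-(1-7) libraries and least so in replicate 3.

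The closest to miR-128-3p were miR-1839-3p (0.09), miR-431-3p (0.10) and miR-369-5p (0.11), against a median of 0.46. miR-431-3p measured 1645, 1692 and 1304 normalized counts after Ang-(1-7), against 1001, 911 and 1033 with aCSF alone. The closest to miR-9-5p were miR-326-3p (0.10), miR-186-5p (0.10) and miR-350-3p (0.10), and each was highest in Ang-(1-7) replicate 2, as miR-9-5p was. The closest to miR-9-3p were miR-382-5p (0.15), miR-30b-3p (0.19) and miR-501-3p (0.21), and each was lowest in Ang-(1-7) replicate 2, as miR-9-3p was. The closest to miR-124-5p were miR-151-5p (0.08), miR-210-3p (0.11) and miR-1298-3p (0.13).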

How the data were processed

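RNA of the right SN was sequenced on a NovaSeq. As the methods and processing notes give it, the authors matched reads with Bowtie 1.2.3, with the build given as mm9, and normalized them with DESeq2 1.10.1. For trimming, miRBase release and counting: not given in the sources used here. Deposited signal values are read counts divided by size factors, which are separate for annotated miRNAs and predicted loci. The table also holds the authors' fold changes and p-values, which were not used, and 1231 predicted loci, which were not analysed here. Within the annotated miRNAs, 100% of the values were whole multiples of 1 read (tolerance 1e-06), which gave depth, shares and the input of voom. Groups were compared with limma 3.58.1 (R 4.3.3) with a trend, on log2(value + 1). On that scale the fold changes of scarce miRNAs are understated. Arm ratios were fitted likewise over 137 hairpins, and ratios between members by an exact permutation test. Python 3.11.15, pandas 2.3.3, scipy 1.17.1 and matplotlib 3.10.9 were used for the rest. Positions come from GRCm38, which is not the build of the authors' mapping. The members and lists were chosen with earlier results of these data known. Besides the members and listed miRNAs, the text names the other arms, miRNAs with a shifted seed and the 3 nearest profiles per member. As alternatives, the pseudocount was 0.1 or 5, the filter was dropped or set to 50, and there were other scalings, a replicate block, robust limma, voom, a miR-10 covariate and each library left out. For arm ratios the minimum mean was 50, or 10 as an alternative. The planned count tests were not run.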

Additional observations from a re-analysis of the deposited data

How the results depend on the processing

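Across 18 alternatives each, miR-124-3p was lower in all (log2 change -1.11 to -0.50) and passed in 10, while miR-128-3p was higher in all (0.49 to 0.78) and passed in 5, and miR-9-3p was lower in all (-1.02 to -0.31) and passed in 2. Adjusted p-values from limma ran from 0.00853 to 0.465, 0.0224 to 0.468 and 0.0274 to 0.753. The call of miR-124-3p was lost with quantile normalization (-0.84), with library totals without the 5 members (-0.81) and with the miR-10 covariate (-0.50). miR-128-3p passed at 0.66 with the filter of 50, with robust limma and with voom. miR-9-5p turned below 0 with quantile normalization (-0.12) and the covariate (-0.24), and miR-124-5p above 0 with totals without the members (0.023). With 1 library left out, the log2 change ran from -1.11 to -0.72 for miR-124-3p, from -0.29 to 0.17 for miR-124-5p, from -0.032 to 0.31 for miR-9-5p, from -1.02 to -0.49 for miR-9-3p and from 0.54 to 0.78 for miR-128-3p. The miRNAs higher and lower numbered 59 and 43, 13 and 9 with the covariate, and 19 to 62 and 8 to 49 with 1 library left out. The other neuron-enriched miRNAs that passed as higher numbered 0 with the covariate (limma, 6 at an unadjusted p under 0.05) and 0 to 6 with 1 library left out. The arm ratios kept their direction and did not pass in 11 alternatives each (-1.07 to -0.35 for miR-124 and -1.33 to -0.074 for miR-9, nearest 0 with the covariate). The ratios between members kept their direction in 7 alternatives each, the left-out libraries and the block, and the covariate was not run on them. The cause of these changes was not tested. Numbers are those of the table's columns, and the authors' summary sheet numbers the hα-syn(A53T) libraries differently. Deviations of same-numbered libraries had correlations across miRNAs of 0.12, -0.09 and 0.18, against -0.22 to 0.14 for differently numbered ones. Whether the numbers pair the libraries cannot be told from so few of them. With the number as a replicate block, miR-124-3p stayed at -0.89 (adjusted p = 0.0208), and miR-9-3p (-0.79, adjusted p = 0.0274) and miR-128-3p (0.66, adjusted p = 0.0227) passed in limma. Planned tests for raw counts were not run, since the table's parts have separate size factors and its columns did not pass as recovered counts as a whole, whereas voom used the annotated reads. Shares are limited little by depth, and the spread between 3 libraries sets the precision.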
